A study of Mus musculus with 46 samples.

Results

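The members described here are the mouse genes of phase II conjugation: every symbol of the RNA-seq count table that names a UDP-glucuronosyltransferase (Ugt1, Ugt2 or Ugt3), a cytosolic sulfotransferase (Sult1 to Sult7), a cytosolic or kappa-class glutathione S-transferase (Gsta, Gstm, Gstt, Gstp, Gsto, Gstz and Gstk) or a microsomal glutathione S-transferase (Mgst), together with Gm3776 and Nat8f7, which were added by name. They filled 68 of the 25494 rows of the table and carried 67 symbols, because Sult1c1 was listed at 2 positions. The symbol patterns used no measured value. Gm3776 and Nat8f7 were added because of their difference between the diets. Their RNA values are given as a description with no test between the diets, and they are left out of the counts of called members below. They enter only the refits of named members and the search for outlying libraries at the end.

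All libraries came from liver of male C57BL/6 mice without any engineered allele. Mice were fed, over several months after acclimation on chow, either a purified diet rich in lipid (LD, the high fat diet of the labels) or a purified diet rich in carbohydrate (CD, the low fat diet of the labels). RNA-seq of ribosome-depleted RNA was done on 5 mice per diet, ChIP-seq of H3K27ac, a mark of active promoters and enhancers, on 3 samples per diet, and ChIP-seq of the transcription factors Hnf4α and C/EBPα on 2 samples per diet each. Promoter capture Hi-C (PCHi-C), which records the fragments that touch captured promoters, was deposited as 1 pooled list per diet. Whole liver was used, so more cells of a type and more RNA per cell cannot be told apart. The ChIP-seq samples of a diet were separate animals, as the study's text gives them.

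In phase II metabolism a drug, hormone, bile pigment or reactive lipid product is coupled to a polar group so that it can leave the cell. UDP-glucuronosyltransferases sit in the endoplasmic reticulum and transfer glucuronic acid from UDP-glucuronic acid, sulfotransferases transfer sulfate from the donor PAPS, and glutathione S-transferases join glutathione to electrophiles. Hepatocytes hold most of these enzymes, their genes lie in tandem clusters, and several are known targets of the nuclear receptors CAR and PXR, of the aryl hydrocarbon receptor AHR and of the oxidative stress factor NRF2.

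The glutathione S-transferases gave most of the calls higher on LD. A gene was called when its adjusted p in edgeR's quasi-likelihood test (Benjamini-Hochberg over all genes tested) was under 0.05 and its fold change was above 1.2. Of the 66 rows selected by symbol pattern, 47 passed the filter on low counts, and 15 of them rose and 6 fell on LD. These were 31.9% and 12.8% of the tested members, while 13.8% of the 13494 genes tested were called higher on LD and 11.1% lower. The calls higher on LD include Gsta1 and Sult1e1, which had few read pairs on CD. Both drop out when at least 10 counts are required in every sample. The median log2 fold change (LD over CD) was 0.14 over the tested members and -0.0019 over all genes tested. The 5 LD mice lay all above the 5 CD mice in 10 members and all below them in 4, where 10.2% and 8.35% of all genes tested did so.

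Within the families, 9 of the 19 tested cytosolic and kappa-class glutathione S-transferases rose and 2 fell, with a median log2 fold change of 0.39. Among the UDP-glucuronosyltransferases, 4 of 18 rose and 2 fell, with a median of 0.16. Among the sulfotransferases, 1 of 8 rose and 2 fell, with a median of -0.32. The gene that rose, Sult1e1, was under 1 CPM on both diets. Those that fell, Sult1a1 and Sult2a7, lost their calls in 13 and 7 of 20 refits. Of the 2 tested microsomal transferases, Mgst3 rose and Mgst1 did not pass the test. The share of counted read pairs that fell on the members was between 1.55% and 1.69% in the LD libraries and between 1.40% and 1.51% in the CD libraries, out of 31707963 to 39012699 counted read pairs per library.

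**Figure D1:**
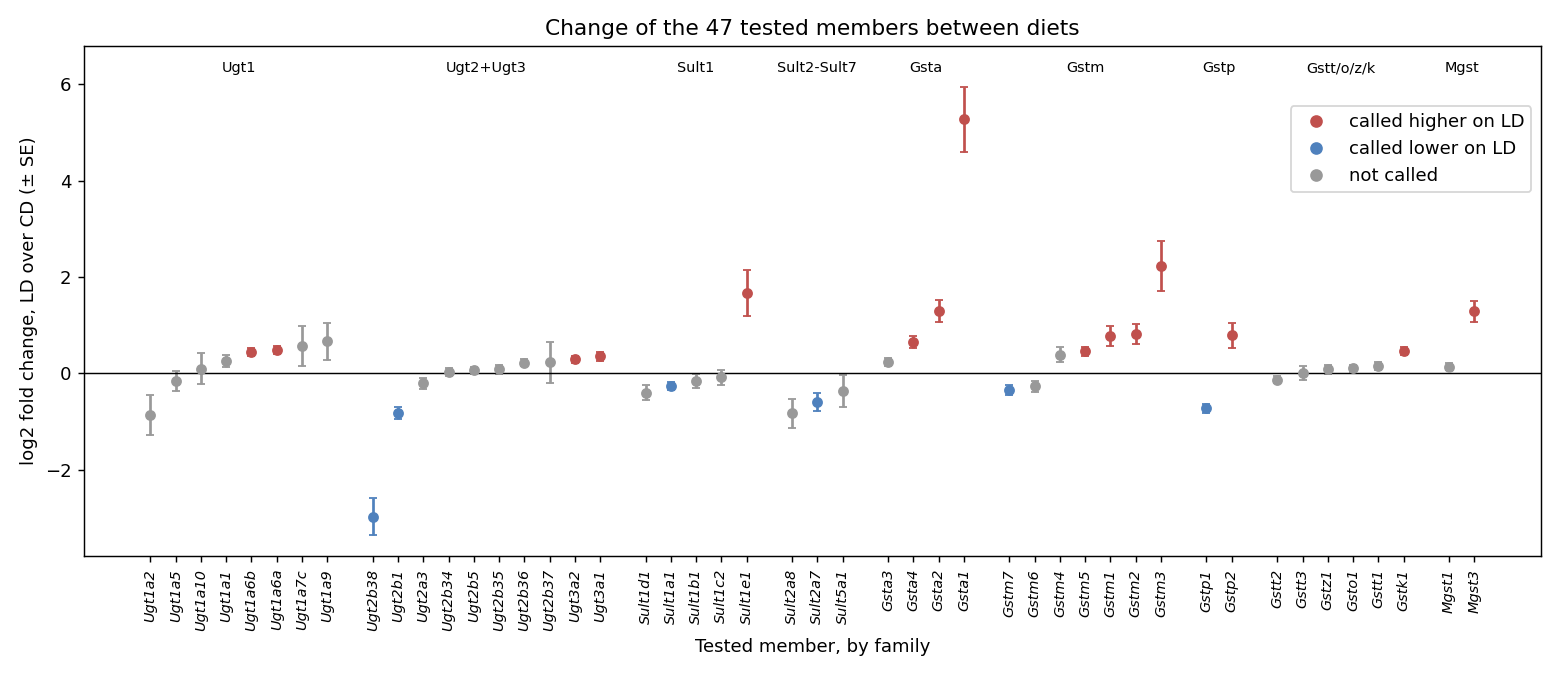
Fitted log2 fold changes (y axis, LD over CD) of the 47 tested members, ordered by family on the x axis, each point a gene with its standard error as a bar and its call shown by colour. The alpha-class member Gsta1 lies highest at 5.27 and Ugt2b38 lowest at -2.98, and most other members lie within 1 log2 unit of 0.

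The alpha-class transferases, which conjugate lipid peroxidation products such as 4-hydroxynonenal and also handle steroids, had the largest rise. Gsta1 (gene ID 14857, mm9 chr9:78078476-78090490, plus strand) stood at 2.30, 3.47, 8.44, 10 and 14.8 CPM (counts scaled to library size) in LD mice 1 to 5 and at 0.0956, 0.131, 0.307, 0.0635 and 0.378 CPM in CD mice 1 to 5. Every LD mouse was above every CD mouse, and LD mice 3, 4 and 5 were higher than LD mice 1 and 2. The log2 fold change was 5.27 ± 0.67 (SE), with an adjusted p of 0.000517 in edgeR's quasi-likelihood test. Gsta1 held 2 to 13 read pairs in the CD libraries, so it owed its place in the test to the LD mice, and it drops out when at least 10 counts are required in every sample.

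Its tandem copy Gm3776 (gene ID 100042295, chr9:78104936-78116973, plus strand) ranked the LD mice alike at lower counts. Levels were 0.866, 1.06, 2.27, 2.30 and 3.02 CPM in LD mice 1 to 5, and at 0, 0.0261, 0.140, 0 and 0.0291 CPM in CD mice 1 to 5. The 5 LD libraries held 331 read pairs of this gene and the 5 CD libraries 7, a ratio of 45.6 after scaling for depth. Reads cannot be assigned to these copies with certainty, since 90.3% of the 76-base stretches of the Gm3776 transcript and 86.1% of those of Gsta1 occur also in other transcripts, mostly of each other.

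The promoters of the cluster show how close these copies are, so the stretches before the start sites of Gsta1, Gm3776 and Gsta2 are printed here, read from the reference genome of the files' build (mm9) up to the gene starts of the count table. Each runs 5′ to 3′ on the gene's strand and leaves out bases inside an annotated exon. They lie at chr9:78078226-78078462, chr9:78104686-78104935 and chr9:78194976-78195202, and capitals mark a match to TTCNNNGAA, a string of STAT sites.
Gsta1: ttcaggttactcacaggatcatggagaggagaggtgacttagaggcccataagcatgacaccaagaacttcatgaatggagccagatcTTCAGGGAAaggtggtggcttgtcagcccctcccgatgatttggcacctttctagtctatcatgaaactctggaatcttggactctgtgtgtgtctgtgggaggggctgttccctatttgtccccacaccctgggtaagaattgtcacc
Gm3776: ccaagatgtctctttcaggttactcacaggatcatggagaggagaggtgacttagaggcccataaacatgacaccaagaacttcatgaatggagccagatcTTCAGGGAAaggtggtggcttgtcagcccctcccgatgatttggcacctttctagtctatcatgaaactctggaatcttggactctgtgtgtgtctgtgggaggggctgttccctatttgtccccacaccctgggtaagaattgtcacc
Gsta2: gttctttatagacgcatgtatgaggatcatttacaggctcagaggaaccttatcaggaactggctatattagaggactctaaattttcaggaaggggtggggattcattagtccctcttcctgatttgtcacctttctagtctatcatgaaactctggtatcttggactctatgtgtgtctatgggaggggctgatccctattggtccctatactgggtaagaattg
Aligned without gaps, the promoters of Gsta1 and Gm3776 had 236 of 237 bases in common. The promoters of Gsta1 and Gsta2 shared 55.1% of bases and those of Gsta1 and Gsta4 30.0%. The STAT string was found in 5.97% of the 67 member promoters and in 6.75% of all promoters, so its presence here is a description only.

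Gsta2 and Gsta4 also rose. Gsta2 stood at 10.9, 9.84, 13.7, 20 and 19.2 CPM in the LD mice and at 4.84, 5.35, 7.74, 4.89 and 7.16 CPM in the CD mice, without overlap between the diets. Its log2 fold change was 1.29 ± 0.22 (adjusted p = 0.00154), and 46.9% of its 76-base stretches are shared with other transcripts. Gsta4, the class member with the highest known activity on 4-hydroxynonenal, has no such stretch in common with another gene. It stood at 48.8, 54.8, 68.3, 82.5 and 76 CPM on LD against 42.9, 42.3, 44.9, 38.7 and 40.5 CPM on CD, again without overlap (log2 fold change 0.66 ± 0.12, adjusted p = 0.00216). Gsta3, the abundant alpha-class enzyme of mouse liver and the member of the class whose gene lies apart on chromosome 1, averaged 2328 ± 204 CPM (SD, n = 5) on LD and 1983 ± 161 CPM on CD and was not called (log2 ratio 0.23, adjusted p = 0.057), though it passed without LD mouse 5 (adjusted p = 0.0179) or CD mouse 5 (adjusted p = 0.0454).

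**Figure D2:**
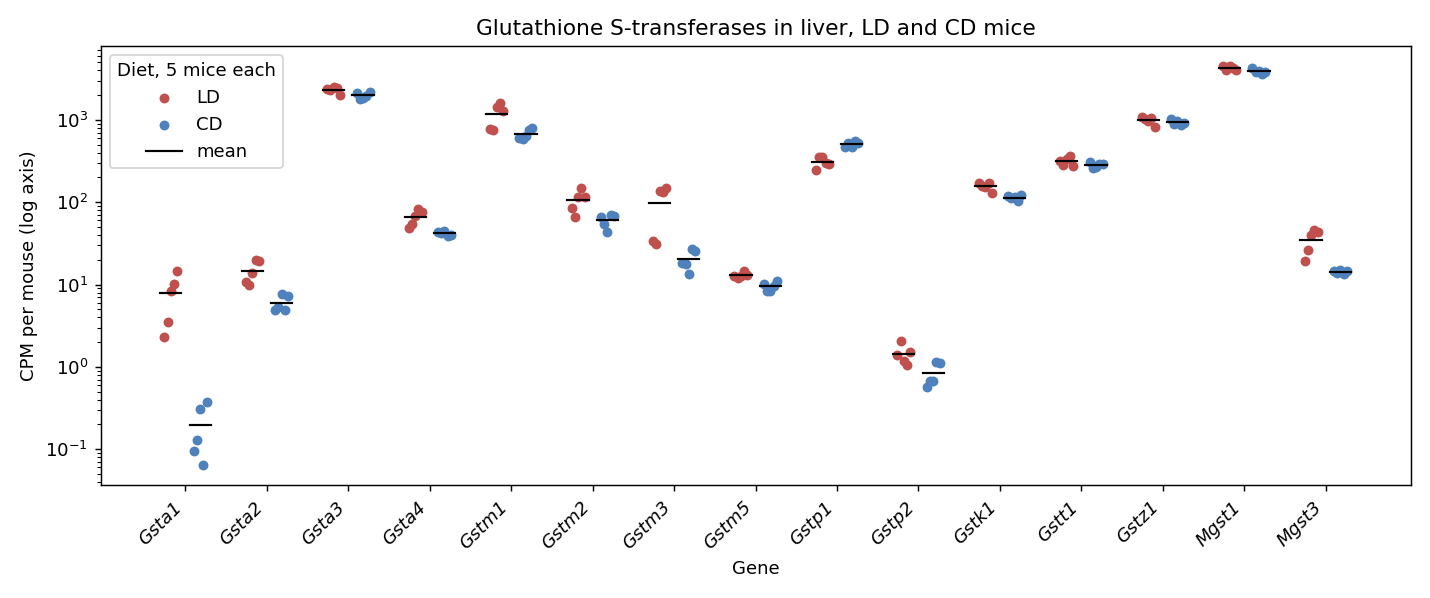
CPM (y axis, log scale) of named glutathione S-transferase members in each of the 5 LD and 5 CD mice, each point a mouse and each bar a mean. Gsta1 runs from 2.30 to 14.8 CPM on LD and from 0.0635 to 0.378 CPM on CD, and Gstp1 is the gene in which all LD points lie below all CD points.

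The mu-class genes, which lie side by side on chromosome 3 and whose products conjugate epoxides and quinones, had 4 of 7 members called higher and 1 lower. Gstm3 (gene ID 14864, chr3:107766614-107772092, minus strand) stood at 33.4, 31.4, 136, 133 and 149.6 CPM in LD mice 1 to 5 and at 18.4, 18, 13.5, 27.3 and 25.8 CPM in CD mice 1 to 5. All LD mice were above all CD mice, with LD mice 1 and 2 close to the CD range and the other 3 well above it. It rose by 2.23 ± 0.52 on the log2 scale (adjusted p = 0.0140).

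Gstm1, the most abundant mu-class member, stood at 772, 751, 1414, 1590 and 1283 CPM on LD and at 607, 582, 645, 757 and 795 CPM on CD. LD mice 1 and 2 lay within the range of the CD mice, and the log2 fold change was 0.78 ± 0.21 (adjusted p = 0.0174). Gstm2 rose by 0.81 ± 0.21 on the log2 scale (adjusted p = 0.0154), from 60.2 ± 11 CPM on CD to 105 ± 31.1 CPM on LD (SD, n = 5). Gstm5 rose by a smaller amount, from 9.52 ± 1.19 to 13 ± 0.935 CPM, but with no overlap between the diets (log2 fold change 0.46 ± 0.10, adjusted p = 0.00369). Gstm7 fell, from 53.4 ± 6.94 CPM on CD to 41.9 ± 4.29 CPM on LD (log2 fold change -0.35 ± 0.10, adjusted p = 0.0155). When edgeR tested against a fold change of 1.2, Gstm3 alone of these 5 calls remained. Gstm4 and Gstm6 were not called (log2 fold changes 0.39 and -0.27), so neighbours of 1 cluster did not share a direction.

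Gstp1, the pi-class enzyme that male mouse liver holds in large amounts, fell. It stood at 246, 349.8, 349, 299 and 291 CPM in LD mice 1 to 5 and at 474, 528, 469.6, 548 and 528 CPM in CD mice 1 to 5. No LD mouse reached the lowest CD mouse, and the log2 fold change was -0.73 ± 0.10 (adjusted p = 0.000184). The neighbouring Gstp2 (chr19:4040288-4042221, next to Gstp1 at chr19:4035411-4037912) was called in the other direction at a far lower level, 1.43 ± 0.38 CPM on LD and 0.834 ± 0.269 CPM on CD (log2 fold change 0.79 ± 0.26, adjusted p = 0.0340). The call of Gstp2 was lost without LD mouse 2 or 5 or CD mouse 1, 2 or 3 (adjusted p from 0.0631 to 0.0885). The diets overlapped in Gstp2. Of its 76-base stretches 62.8% are also in Gstp1, and 62.4% of those of Gstp1 are in Gstp2, so the counts of both are uncertain.

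Of the theta, omega, zeta and kappa classes, Gstk1 alone was called among the 6 tested. Gstk1, the kappa-class enzyme of mitochondria and peroxisomes, stood at 173, 156, 154, 169 and 128 CPM on LD and at 118, 111, 116, 103 and 122 CPM on CD, above the CD mice in each LD mouse (log2 fold change 0.45 ± 0.08, adjusted p = 0.00154). Gstz1, which isomerises maleylacetoacetate in tyrosine breakdown, averaged 988 ± 102 CPM on LD and 935 ± 57.5 CPM on CD and was not called (adjusted p = 0.522). Gstt1 averaged 314 ± 37.6 and 283 ± 20.2 CPM and was not called either (adjusted p = 0.230). Among the microsomal transferases, Mgst3, which also reduces lipid hydroperoxides with glutathione, stood at 19.2, 26.1, 39.6, 45.7 and 43.5 CPM on LD and at 14.4, 13.7, 15.1, 13.6 and 14.6 CPM on CD. The lowest LD mouse was above the highest CD mouse, and the log2 fold change was 1.29 ± 0.21 (adjusted p = 0.00137). Mgst1, the major microsomal transferase, averaged 4258 ± 263 and 3874 ± 236 CPM and was not called (log2 ratio 0.14, adjusted p = 0.199).

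Among the glucuronosyltransferases, the largest difference was a fall of Ugt2b38. This member of the Ugt2b cluster on chromosome 5 (gene ID 100559, chr5:87838965-87853228, minus strand) stood at 1.52, 0.956, 1.37, 0.667 and 0.587 CPM in LD mice 1 to 5 and at 7.07, 7.88, 5.14, 15.4 and 4.74 CPM in CD mice 1 to 5. The highest LD mouse lay below the lowest CD mouse, and the log2 fold change was -2.98 ± 0.38 (adjusted p = 0.000303). Ugt2b1, an abundant member of the same cluster, fell too. It stood at 406, 345, 319, 264 and 254 CPM on LD and at 601, 583, 615, 539.6 and 487 CPM on CD, without overlap (log2 fold change -0.83 ± 0.12, adjusted p = 0.000354). None of its 76-base stretches is shared with another transcript, while 27.8% of those of Ugt2b38 are, with Ugt2b5 and Ugt2b37.

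The abundant Ugt2b5 and Ugt2b36 of the same cluster were not called. Ugt2b5 averaged 822 ± 69.6 CPM on LD and 788 ± 23.5 CPM on CD (log2 fold change 0.06 ± 0.07, adjusted p = 0.578). Ugt2b36 had an adjusted p of 0.0427 but its log2 fold change of 0.22 was under the fold threshold. The promoters of Ugt2b38 (chr5:87853229-87853478) and Ugt2b5 (chr5:87569366-87569615) are shown because these are close relatives that differed in their response. Capitals mark, in Ugt2b5, the match TTGGGCAA to the C/EBP string TTGCNNAA on the opposite strand, which has no match in Ugt2b38.
Ugt2b38: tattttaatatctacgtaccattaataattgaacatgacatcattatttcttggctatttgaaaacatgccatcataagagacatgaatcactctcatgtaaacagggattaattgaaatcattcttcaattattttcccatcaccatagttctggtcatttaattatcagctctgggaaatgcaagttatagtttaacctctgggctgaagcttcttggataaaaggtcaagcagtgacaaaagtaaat
Ugt2b5: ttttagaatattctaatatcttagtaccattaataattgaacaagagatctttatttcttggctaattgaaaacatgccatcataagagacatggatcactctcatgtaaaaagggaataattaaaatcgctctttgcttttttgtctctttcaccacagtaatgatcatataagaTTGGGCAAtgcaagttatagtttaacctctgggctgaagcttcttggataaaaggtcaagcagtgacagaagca
The first base of this match lay at position -74 from the start site of Ugt2b5. The ungapped promoters of Ugt2b38 and Ugt2b5 shared 59.9% of bases, and those of Ugt2b38 and Ugt2b37 94.1%. Ugt2b37 averaged 1.64 ± 1.01 CPM on LD and 1.39 ± 0.676 CPM on CD and was not called (log2 ratio 0.23, adjusted p = 0.723).

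The Ugt1 genes share their last exons and differ in the first, so reads on the shared exons cannot be given to a single member. Between 57.7% and 88.6% of their 76-base stretches are shared, and what follows holds for the counts as deposited. Ugt1a6a, whose enzyme conjugates phenols, stood at 66.1, 67.2, 81.6, 89.0 and 65.8 CPM on LD and at 49, 52.9, 53.9, 53.3 and 54.7 CPM on CD, without overlap (log2 fold change 0.49 ± 0.09, adjusted p = 0.00136). Ugt1a6b rose alike, by 0.44 ± 0.09 on the log2 scale (adjusted p = 0.00234). Ugt1a1, the enzyme that conjugates bilirubin, averaged 265 ± 56.9 CPM on LD and 223 ± 20 CPM on CD and was not called (log2 ratio 0.25, adjusted p = 0.159).

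Ugt1a9 was not called either, but its LD mice were unlike each other. It stood at 14.6, 14.7, 38.6, 46.8 and 55.9 CPM in LD mice 1 to 5 and at 19.8, 18.6, 27.2, 20.2 and 21.9 CPM in CD mice 1 to 5 (log2 fold change 0.66 ± 0.39, adjusted p = 0.246). LD mice 1 and 2 lay below all CD mice and LD mice 3, 4 and 5 above all of them. The same LD mice were the 3 highest of their diet in Gsta1, Gstm1, Gstm3 and Mgst3. Of the Ugt3 enzymes, which use other sugars in place of glucuronic acid, both rose by small amounts. Ugt3a2 stood at 569.5, 475, 578, 560.2 and 503 CPM on LD and at 443, 414, 459, 429 and 456 CPM on CD (log2 fold change 0.29 ± 0.07, adjusted p = 0.0112, but 0.26 and under the fold threshold without LD mouse 3), and Ugt3a1 rose by 0.35 ± 0.09 on the log2 scale (adjusted p = 0.0135).

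**Figure D3:**
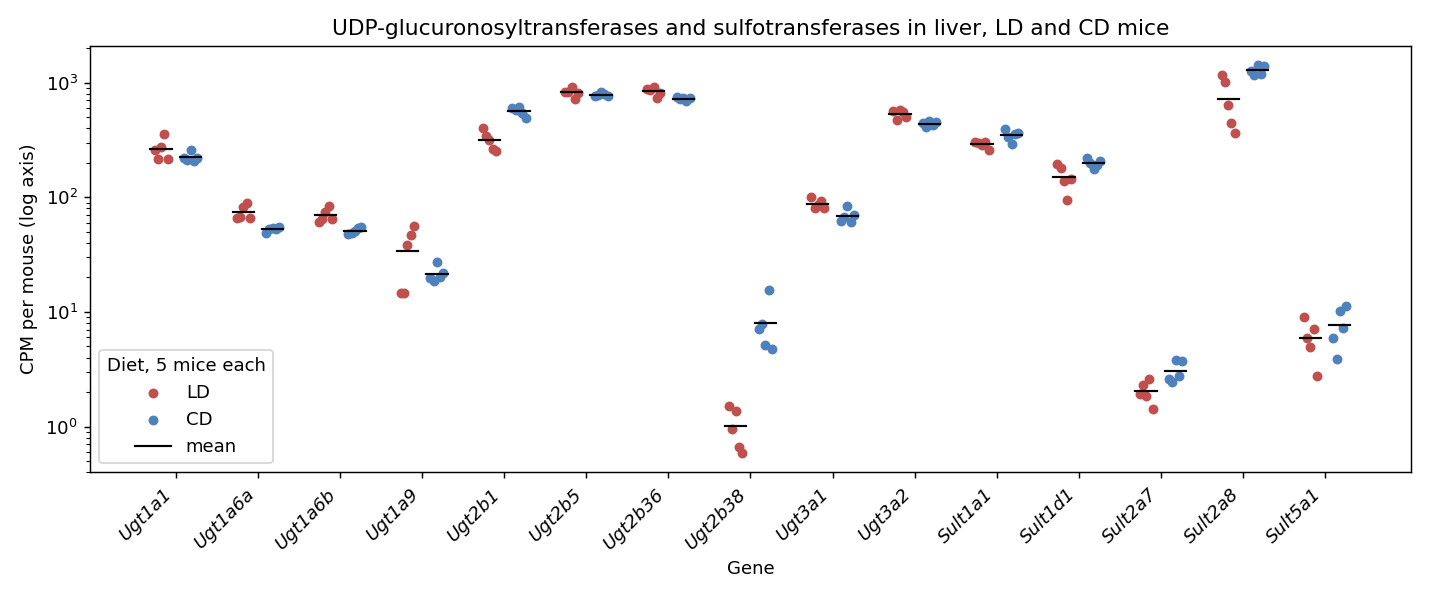
CPM (y axis, log scale) of named UDP-glucuronosyltransferase and sulfotransferase members in each of the 5 LD and 5 CD mice, each point a mouse and each bar a mean. Ugt2b38 runs from 0.587 to 1.52 CPM on LD and from 4.74 to 15.4 CPM on CD, and the LD points of Sult2a8 spread from 367 to 1157 CPM.

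The most abundant sulfotransferase was Sult2a8, a liver enzyme that sulfates bile acids (gene ID 76971, chr7:14996035-15031936, minus strand). It stood at 1157, 1008, 637, 441 and 367 CPM in LD mice 1 to 5 and at 1257, 1173, 1417, 1195 and 1390 CPM in CD mice 1 to 5. Each LD mouse lay below each CD mouse, but the LD mice spread widely and the gene missed the threshold (log2 fold change -0.83 ± 0.30, adjusted p = 0.0638). Without LD mouse 1 its log2 fold change was -1.07 and it passed the test (adjusted p = 0.014). Sult2a7, its low-level neighbour, fell from 3.05 ± 0.646 CPM on CD to 2.02 ± 0.449 CPM on LD (log2 fold change -0.59 ± 0.19, adjusted p = 0.0324), and LD mouse 4, at 2.61 CPM, overlapped with the CD mice. Its call was lost in 7 of 20 refits, among them those without LD mouse 1, 3 or 5 or CD mouse 3 or 5 (adjusted p from 0.0572 to 0.0836).

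Sult1a1, the broad phenol sulfotransferase, fell from 349 ± 38.7 CPM on CD to 290.4 ± 19.0 CPM on LD (log2 fold change -0.26 ± 0.09, adjusted p = 0.0325). This call was lost in 13 of 20 refits, among them those without LD mouse 3 or 5 or CD mouse 1, 2, 4 or 5 (adjusted p from 0.0513 to 0.0723). CD mouse 3, at 289.5 CPM, lay within the LD range. Sult1d1, which sulfates catecholamines, averaged 151 ± 39.7 CPM on LD and 199 ± 16.3 CPM on CD and was not called (adjusted p = 0.0840, and 0.0209 without LD mouse 1, where it passed). Sult1e1, the estrogen sulfotransferase, was called higher at a level under 1 CPM. It stood at 0.568, 0.201, 0.403, 0.425 and 0.391 CPM on LD and at 0.0637, 0.0783, 0.0838, 0.0635 and 0.320 CPM on CD (log2 fold change 1.66 ± 0.47, adjusted p = 0.0180). A single CD mouse, number 5, overlapped with the LD mice. With 2 to 11 read pairs in the CD libraries and 8 to 21 in the LD libraries, Sult1e1 too drops out when at least 10 counts are required in every sample.

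Nat8f7, a member of the Nat8 family of N-acetyltransferases, whose best known enzyme acts on cysteine conjugates, differed in the other direction from Gm3776. It stood at 0.0812, 0, 0.0310, 0 and 0 CPM in LD mice 1 to 5 and at 1.56, 1.12, 1.62, 0.889 and 1.16 CPM in CD mice 1 to 5. The LD libraries held 4 of its read pairs and the CD libraries 218, a depth-scaled ratio of CD to LD of 56.5. Its relatives Nat8 and Nat8f1, which the rule did not choose, fell as well, with log2 fold changes of -1.08 and -0.85 (adjusted p = 0.000740 and 0.000550). No other Nat8 relative in the fixed list of other conjugating enzymes was called.

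Compared per transcript length, in the authors' TPM values, Mgst1 was the most abundant member at 8555 ± 531 TPM on LD and 7369 ± 258 TPM on CD (SD, n = 5). Gsta3 followed with 2733 ± 144 and 2210 ± 148 TPM, then Gstm1 with 1702 ± 553 and 941 ± 140 TPM. Gstp1 had 781 ± 107 TPM on LD and 1231 ± 112 TPM on CD, so in these values Gstp1 was above Gstm1 on CD and below it on LD. Of the 76-base stretches of Gstp1, 62.4% are shared with Gstp2, beside 5.6% shared with another gene in Gstm1. The order of their levels is therefore uncertain. Gsta1, despite its fold change, reached 17.5 ± 12.1 TPM on LD. Of the members that failed the filter, 8 rows had no read pair in any library: Gstt4, both rows of Sult1c1, Sult2a4, Sult2a5, Sult2a6, Sult6b2 and Ugt2a2. The other untested members held at most 36 read pairs on either diet. Among these, Sult3a1 had 36 read pairs on LD and 13 on CD.

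The genes that supply and recycle the cosubstrates were examined from fixed lists. In the list of UDP-glucuronic acid supply, 2 of 5 tested genes rose: Ugdh, which makes UDP-glucuronic acid, from 133 ± 9.09 to 253 ± 39.4 CPM (log2 fold change 0.93, adjusted p = 4.24e-05), and Gusb, which removes glucuronic acid from conjugates (log2 fold change 0.57). None of the 8 tested genes of PAPS supply and sulfate removal was called in either direction, and their median log2 fold change was -0.01. Of 17 tested genes of glutathione synthesis and turnover, 4 rose and 2 fell. Gss, the last enzyme of glutathione synthesis, rose with a log2 fold change of 0.79, Ggct with 0.73 and the cystine carrier Slc7a11 with 3.50, from 0.0489 to 0.624 CPM, while Cbs fell (log2 fold change -0.34). Slc7a11 was near the floor on CD, so it owed its place in the test, and in these counts, to the LD mice. Gclc, which catalyses the rate-limiting step, was not called (log2 ratio 0.40, adjusted p = 0.0915).

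Other conjugating enzymes had 2 of 19 tested genes called higher and 4 lower. The methyltransferases Gnmt and Inmt fell with log2 fold changes of -0.68 and -1.02, while Tpmt and Hnmt rose with 0.41 and 0.33. Of 14 tested targets of NRF2 outside the families, 8 rose and none fell, and their median log2 fold change was 0.92 against -0.0019 over all genes. Their summed level was 1647 and 1604 CPM in LD mice 1 and 2, 2212 to 2336 CPM in LD mice 3 to 5 and 1135 to 1434 CPM on CD, so LD mice 1 and 2 were again the lowest of their diet. Among them Nqo1 rose with a log2 fold change of 1.37, Srxn1 with 1.29, Ephx1 with 1.23, Aox1 with 1.13 and Abcc3, which exports glucuronides, with 1.01. Slc7a11, near the floor on CD as given above, also counts among the 8. Of 9 tested targets of CAR, PXR and AHR, Aldh1a1 (0.84) and Cyp1b1 (0.86) rose and Cyp1a2 (-0.90) fell. Of the 13 tested regulators, 4 rose and none fell: Nr1i3, which encodes CAR, rose with a log2 fold change of 0.67 and Nfe2l2, which encodes NRF2, with 0.38, while the genes of the 2 factors studied by ChIP-seq, Hnf4a and Cebpa, both had a log2 fold change of -0.26 and stayed under the fold threshold (adjusted p = 0.0176 and 0.0202).

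Some genes with a sex bias in mouse liver differed between the diets in these male mice. Of 12 tested genes with a known male bias, 6 fell (50%, beside 11.1% of all genes tested) and none rose, with a median log2 fold change of -1.63. Their summed level was 14699 CPM in LD mouse 2, within the 11582 to 16369 CPM of the CD mice, and 4084 to 9434 CPM in the other LD mice. Hsd3b5, among the most strongly male-biased liver genes, went from 407 ± 32.1 CPM on CD to 9.92 ± 13.3 CPM on LD (log2 fold change -5.34, adjusted p = 0.0126). Of 8 tested genes with a known female bias, 4 rose (50%, beside 13.8% of all genes tested) and none fell, with a median of 2.64. In this list LD mouse 2 had the lowest summed level of its diet (139 CPM, against 228 to 595 CPM in the others and 63.2 to 98.6 CPM on CD). Cyp2b9 went from 0.860 ± 0.586 to 197 ± 144 CPM (log2 fold change 7.82, adjusted p = 0.000372). Their part in the differences of the members was not tested.

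Some markers of other liver cells differed between the diets, though most lists had a share called higher near the 13.8% of all genes tested. All 7 cholangiocyte markers were tested, of which Spp1 rose (log2 fold change 1.98) and none fell. Their summed level was 46.7 to 124 CPM on LD and 19.4 to 33.4 CPM on CD, and the epithelial markers Krt7, Krt19 and Epcam averaged at most 1.63 CPM on either diet. Among stellate cell markers, 3 of 8 rose (Col1a1, Col3a1 and Dcn), with a summed level of 749.7 to 1079 CPM on LD and 668 to 804 CPM on CD. Of the adipocyte list, 2 of 7 genes had no count and 2 of 3 tested genes rose, Cfd and Cidec. Of 10 hepatocyte markers, 5 fell (50%, beside 11.1% of all genes) and 1 rose, and their median log2 fold change was -0.37. Cps1, an enzyme of the urea cycle, fell with a log2 fold change of -1.33, Tat with -0.88, Serpina1c with -0.86, Fgb with -0.76 and Ass1 with -0.54, while Hpx rose with 0.54 and Alb had a log2 ratio of -0.07 (adjusted p = 0.614). The macrophage, lymphocyte and endothelial lists had 1 gene called higher each, of 8, 7 and 7 tested. Whether these cells had a part in the differences of the members was not tested.

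The H3K27ac peak lists were compared as the share of each gene body, with 20 kb on either side, that peaks covered in each sample. Around the 67 members on placed chromosomes, 59 had a peak in reach in some sample, 7 had all 3 LD samples above all 3 CD samples and 7 had them all below, of which Nat8f7 is 1 and was chosen for its RNA difference. For all genes with a peak in reach these shares were 20.9% and 5.30%. Leaving out 1 sample gave up to 11 above (without LD sample 3) and up to 17 below (without LD sample 1), and counting peaks in place of covered length gave 2 above and 4 below. With 3 samples against 3, the exact two-sided permutation test of a single gene cannot go below p = 0.1. Members of 1 cluster share peaks, since their windows overlap, so these genes are not independent of each other.

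Among the members whose diets did not overlap, Gsta1 had the widest relative gain in covered length. Peaks covered 13.1%, 15.0% and 23.1% of its window in LD samples 1 to 3 and 3.46%, 1.92% and 7.69% in CD samples 1 to 3 (exact permutation p = 0.1). In each LD sample a peak of 2800 to 3000 bp spanned position -13076 (in bp from the start site, negative before it) and further peaks lay between positions -5276 and -77. At the distal place the CD samples had peaks of 800, 1000 and 3000 bp, and CD samples 1 and 3 had a peak of 1000 bp near the start. Gsta4 had 16.3%, 22.6% and 27.5% on LD and 8.29%, 9.76% and 16.0% on CD. Its window overlaps that of Gsta1 and takes in the same peaks before Gsta1, so it is not a separate case. Ugt3a2 and Gsto1, Gsto2, Sult2a6 and Ugt2b37 made up the others with LD above CD, of which Ugt3a2 was called higher in RNA.

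**Figure D4:**
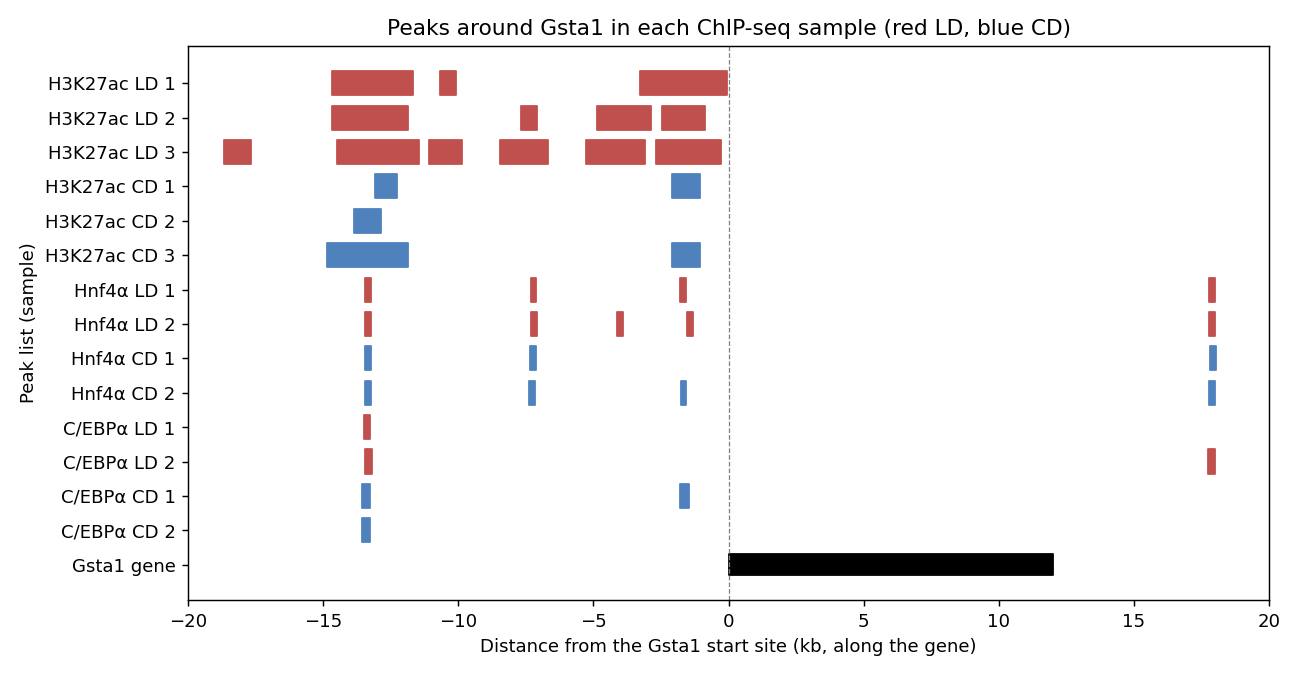
Peaks around Gsta1 in every sample (rows: H3K27ac, Hnf4α and C/EBPα, LD and CD), with the distance from its start site in kb on the x axis and each bar the extent of a deposited peak. All Hnf4α and C/EBPα samples have a peak near position -13076, where the H3K27ac peak is 2800 to 3000 bp wide on LD and 800, 1000 and 3000 bp wide on CD.

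Sult2a8 showed the opposite. Peaks covered 28.2%, 25.8% and 18.7% of its window in LD samples 1 to 3 and 38.7%, 35% and 40.6% in CD samples 1 to 3. A broad peak of 13800 to 15200 bp over its start was present in all 6 samples, and the difference lay farther inside the gene, where CD samples had more covered bases. A locus at chr7:14997200-15000599, 33037 bp past the start site and inside the gene, had a peak in all CD samples and in no LD sample. Gstp1 had 59.6%, 56.3% and 54.4% on LD and 65.7%, 64.3% and 62.9% on CD, and Sult1a1 62.8%, 53.1% and 61.4% on LD and 66.0%, 70.1% and 67.3% on CD. Sult4a1, a sulfotransferase of the brain that held 4 read pairs on LD and 8 on CD, had 8.04%, 5.74% and 9.76% on LD and 21.5%, 19.5% and 22.1% on CD. The broadest locus of its window (chr15:83941800-83955199), present in all samples, lay outside Sult4a1 over part of the neighbouring gene Pnpla5. Coverage there is counted to Sult4a1 too. Nat8f7 had no covered base on LD and 3.82%, 2.39% and 3.82% on CD.

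Of the 15 members called higher in RNA, 3 (20%) had LD samples all above CD samples in H3K27ac, 1 (Gstp2, whose window is nearly that of Gstp1) had them below and 11 overlapped. The 3 include Gsta1 and Gsta4, which share peaks. Among all genes called higher with a peak in reach, 44.0% had LD above and 1.2% below. Of the 6 members called lower, 2 (33.3%) had LD samples below and 4 overlapped, and over all genes called lower 18.4% had LD below. Gstm3 and Mgst3, which rose in RNA, overlapped in H3K27ac: Gstm3 had 39.6%, 30.3% and 44.0% on LD and 33.8%, 34.7% and 32.1% on CD. As separate loci, 153 H3K27ac loci lay in reach of members. None of them was present in all LD samples and absent from all CD samples (LD-only, 0.0%, beside 3.13% of all loci), and 4 were CD-only (2.61%, beside 0.757%). These counts include the window of Nat8f7. The CD-only loci lay near Sult4a1, Sult2a8, Nat8f7 (chr6:85651600-85652799) and Ugt2b38 (chr5:87854200-87855799, -1771 bp from its start site).

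**Figure D5:**
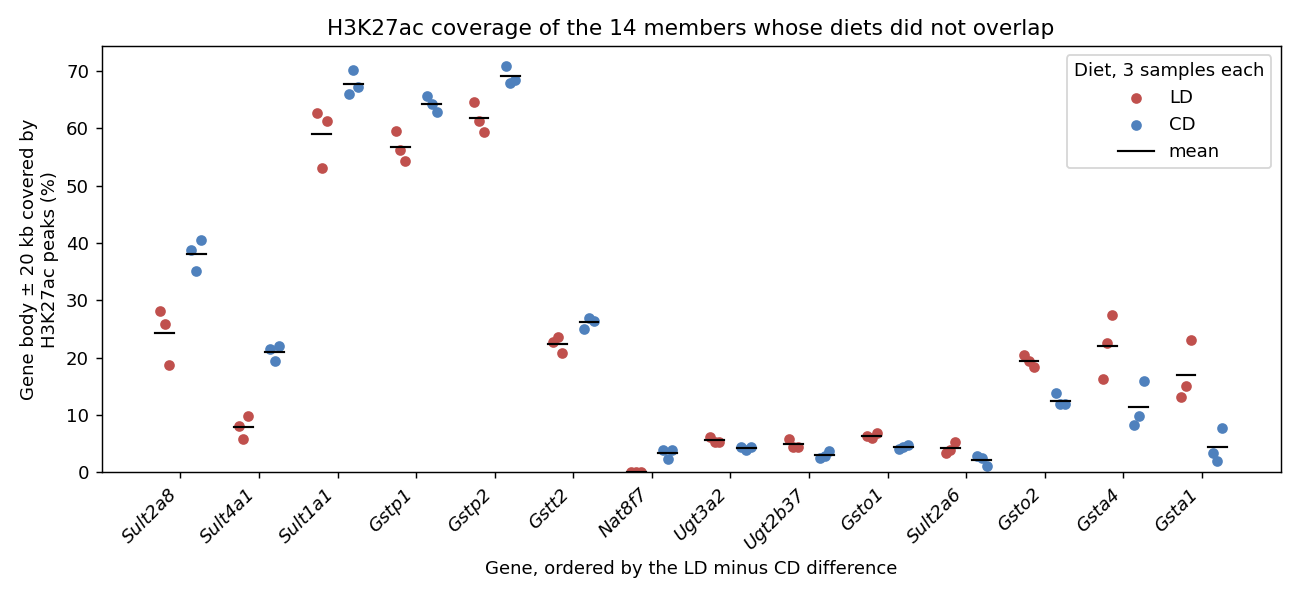
Share of each member's gene body with 20 kb on either side covered by H3K27ac peaks (y axis, percent), for members whose LD and CD samples do not overlap, each point a sample (3 per diet). Gsta1 runs from 13.1 to 23.1% on LD and from 1.92 to 7.69% on CD, and Sult2a8 from 18.7 to 28.2% on LD and from 35 to 40.6% on CD.

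Hnf4α, a nuclear receptor that sustains the hepatocyte program, had peaks around nearly all members. A locus was kept when at least 2 of the 4 samples had a peak. Of the 67 placed members, 62 (92.5%) had such a locus in their window, beside 65.0% of all genes, with a median of 4 loci per member and 1 per gene. A locus centre lay within 1 kb of the start site in 47.8% of members and 24.8% of genes. In all, 194 loci lay in reach of members, 109 of them in all 4 samples. LD-only loci numbered 10 (5.15%, beside 7.48% of all Hnf4α loci) and CD-only loci 8 (4.12%, beside 3.96%).

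The highest Hnf4α peak among the members lay at -404 bp from the start site of Mgst1 (chr6:138088540-138088768), with heights of 325 and 243.5 normalised tags in LD samples 1 and 2 and 153.5 and 297.5 in CD samples 1 and 2. The diets overlapped, and CD sample 1 was the lowest. The labels give each Hnf4α sample its own antibody catalogue number, in an unbroken series, while the study's methods name 1 antibody for all of them. Over the loci present in all samples, median heights were 35.8 and 33.5 on LD and 21.5 and 42.8 on CD, with CD sample 1 again lowest. At chr1:90110252-90110474, in an intron of Ugt1a1 and inside the longer Ugt1 members too, heights were 202 and 191.8 on LD and 106.5 and 259 on CD. Within Mgst3, an intronic locus at chr1:169308120-169308347 had 125.8 and 116.8 on LD and 78.0 and 156 on CD. Before Gsta1, at the distal place named above (chr9:78065008-78065241, between genes), heights were 86.8 and 71.5 on LD and 51.0 and 153.2 on CD.

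The centres of 2 strong loci are printed because they show which letters lie under peaks of members with a high level or called in RNA: the Mgst1 locus above (chr6:138088554-138088753) and the Mgst3 intron (chr1:169308133-169308332). Both are on the plus strand of mm9. Capitals mark TTGCCTAA, a match to the C/EBP string, in Mgst1 and the HNF4 string CAAAGTCCA in Mgst3.
Mgst1: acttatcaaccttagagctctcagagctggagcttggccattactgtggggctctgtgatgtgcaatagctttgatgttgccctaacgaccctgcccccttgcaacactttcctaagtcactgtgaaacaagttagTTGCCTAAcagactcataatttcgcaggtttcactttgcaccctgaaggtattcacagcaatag
Mgst3: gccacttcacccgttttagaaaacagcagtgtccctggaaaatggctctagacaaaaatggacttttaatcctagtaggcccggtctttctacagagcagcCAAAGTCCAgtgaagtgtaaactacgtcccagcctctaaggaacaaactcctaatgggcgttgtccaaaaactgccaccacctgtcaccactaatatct
The Mgst3 locus is 1 of 5 of the 194 member loci that hold CAAAGTCCA in their central 200 bases. That is 2.58%, beside 5.11% of all Hnf4α loci.

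Summed Hnf4α heights around a member were above CD in both LD samples for 7 members and below in both for 3, where 17.0% of genes with a locus were above and 4.89% below. Around Ugt2b38 they were 30.0 and 21 on LD and 40.3 and 84.4 on CD, and around Sult2a7 24.6 and 20.2 on LD and 25.0 and 56.4 on CD, both in the direction of their RNA. For Sult2a7, LD sample 1 lay just under CD sample 1, and some refits lost its RNA call. Sult6b1, also below, was not tested in RNA. Among the members above, Gstm5 alone had an RNA call, and the others were not called or not tested. Around Gsta1 they overlapped, at 125 and 100.2 on LD and 62.8 and 191.6 on CD. A CD-only locus within Mgst1 (chr6:138092091-138092307) had heights of 31.8 and 88.0, and a CD-only and an LD-only locus lay 116 bp apart before Ugt2b5, at -7557 and -7916 bp from its start. Differences at single loci were not tested here.

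C/EBPα, a bZIP factor of differentiated hepatocytes, had a locus in reach of 57 members (85.1%, beside 61.1% of genes). In all, 118 loci lay in reach of members and 53 were present in all 4 samples. LD-only loci numbered 23 (19.5%, beside 15.3% of all C/EBPα loci) and CD-only loci 6 (5.08%, beside 5.21%). Of the 118, 66 overlapped an Hnf4α locus. The highest was again at Mgst1 (chr6:138088476-138088790), with heights of 159 and 173.5 on LD and 365 and 252 on CD. An LD-only locus lay 963 bp past the start of Mgst1 (chr6:138089896-138090146), with heights of 45.5 and 52.5.

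Sult2a8 had 2 LD-only C/EBPα loci in an intron, at chr7:15023955-15024206 with heights of 12.5 and 19.0 and at chr7:15025005-15025277 with 11.5 and 13. Both overlapped Hnf4α loci present in all samples. Summed C/EBPα heights around Sult2a8 reached 37.0 and 51.0 on LD, against 15.5 and 0 on CD, while its RNA was lower in every LD mouse. Around Gsta1 they reached 33.5 and 58.0 on LD, against 29.5 and 24 on CD, and around Mgst3, which rose too, 56.0 and 81.5 on LD and 161 and 99.5 on CD. Gstk1 had 2 LD-only loci and no other, with summed heights of 22.0 and 19.0. Around Ugt2b1, which fell, they were 55.5 and 70.0 on LD and 45 and 26.5 on CD.

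Of the 57 members with a C/EBPα locus in reach, summed heights were above CD in both LD samples for 18 and below in both for 19. Windows of neighbouring members overlap, so some loci are counted more than once. Gsto1 and Gsto2 had the same sums, as did Ugt1a1 and Ugt1a2. Among all genes with a locus, 15.2% were above and 34.7% below. The heights at loci present in all samples had medians of 24 and 25.5 on LD and 37.5 and 25.0 on CD, so CD sample 1 stood above the other 3. The members below on LD in summed height included Gsta2, Gstm1, Mgst3 and Gstp2, which rose in RNA, and Gstp1 and Sult1a1, which fell. Those above included Gsta1, Gstk1 and Ugt3a1, which rose, and Gstm7 and Ugt2b1, which fell.

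In the promoter capture data, 40 member symbols had a contact with a CHiCAGO score of at least 5. Members had 256 contacts in the LD list and 317 in the CD list, and 190 were in both. Over all promoters the LD list held 151203 contacts and the CD list 149798. The shared contacts were 49.6% of all distinct contacts of members, beside 53.8% over all promoters. Sult2a8 had 13 contacts on LD and 26 on CD, 11 of them in both. Its strongest joined the promoter fragment (chr7:15030417-15032422) to chr7:15104855-15107742, with a score of 15.2 on LD and 35.3 on CD. The next joined it to chr7:15103615-15104854, with 14.2 on LD and 34.6 on CD. Gsta1 had 1 contact on LD and 4 on CD, and the shared one led to chr9:78055524-78062598, with scores of 6.20 and 7.11. Gstm6 had 27 and 34 contacts, Ugt2b34 26 and 37, and Mgst3 19 and 23. Each list pooled the samples of a diet, so these differences have no replicate error.

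Promoter strings were compared with those of all genes. TTGCNNAA of C/EBP, searched on both strands in the 250 bases before the start, was found in 10 of 67 member promoters (14.9%) and in 8.92% of 25334 promoters. Tandem copies with like promoters are counted separately here. Sult2a7 (chr7:15078291-15078525, minus strand) is shown as the Sult2a gene with a call, which some refits lost as given above. Capitals mark TTGCTCAA, a match to this string, which begins at position -230.
Sult2a7: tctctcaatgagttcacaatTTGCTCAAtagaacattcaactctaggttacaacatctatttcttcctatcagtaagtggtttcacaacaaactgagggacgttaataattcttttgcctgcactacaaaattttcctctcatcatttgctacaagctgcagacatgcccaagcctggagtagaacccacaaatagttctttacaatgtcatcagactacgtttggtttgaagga
TGACNNNGC of NRF2 was in 4.48% of member promoters and 10.5% of all, GCGTG of AHR in 19.4% and 32.7%, and CAAAGTCCA of HNF4 in none and 0.407%. The NRF2 string occurred in Gsta3, Gstm5 and Mgst1 among member promoters, of which Gstm5 rose. A match is a run of letters and no evidence of binding.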

How the data were processed

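RNA-seq, ChIP-seq and PCHi-C files of male C57BL/6 mouse liver were analysed, and samples were put into the LD and CD groups from their diet label. The members and gene lists were chosen with earlier results of these data known.

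RNA-seq read pairs were mapped to mm9 with STAR 2.5 and assigned by strand to RefSeq genes with featureCounts 1.5.0-p1, and the authors deposited raw counts. The counting options that the study states include none for reads mapped to several places, which featureCounts leaves out by default. The TPM values, also computed by the authors, were used for levels between genes and for alternatives. Among the TPM columns, 1 of the CD mice carried a replicate number that matched no sample label, so it was used as a CD mouse without a number. The columns of the authors' own DESeq2 comparison were not used. ChIP-seq reads were aligned by the authors with Bowtie 0.12.8 and Picard 1.110. The deposited H3K27ac lists hold SICER peak intervals per sample and no heights. The deposited Hnf4α and C/EBPα lists hold HOMER peaks called per sample against an input, and the signal used is the normalised tag count of each peak, scaled to a common library size. For PCHi-C, a CHiCAGO score of 5 or more marked a contact in the deposited lists, 1 per diet, which the authors made from pooled samples.

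Counts were fitted in R 4.3.3 with edgeR 4.0.16 (TMM, filterByExpr, robust quasi-likelihood test, 5 against 5 mice) over all genes, with Benjamini-Hochberg adjustment over 13494 genes. On simulated counts the fit recovered 192 of 200 changed genes with 5 false calls among 13415 genes. ± after a log2 fold change is the standard error, and after a level the SD. CPM were computed with the TMM scaling. Peak files were analysed in Python 3.11.15 with pandas 2.3.3. Overlapping peaks were merged, and loci within 20000 bp of a gene body were counted to it. Coordinates are those of mm9, and the reference sequence used is of the same assembly. Motif strings were searched on both strands, and 61 members were matched to a GENCODE transcript for the search of shared stretches of 76 bases.

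Members named in full were Gm3776, Nat8f7, members called with separated diets and at least 1 CPM, and the 2 members of each family with the highest TPM, 29 in all. Other members are named, after their values were seen, to account for the remaining calls. Alternatives were other tools (DESeq2 1.42.0, limma 3.58.1), scalings, filters, thresholds, windows and the omission of each sample. Hi-C domain lists were not used. Some genes of the fixed lists and 1 of the strings are not reported here, and the counts leave them out.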

Additional observations from a re-analysis of the deposited data

Results flagged for a closer look

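In 2 of 58 groups of 5 mice, a single library stood apart from the other 4 of its diet, where chance flags about 1 in 20 groups. The groups were those of the named members, Gm3776 and Nat8f7 among them. Gm3776 in CD mouse 3 stood at 0.140 CPM and the next highest CD mouse at 0.0291 CPM, a gap of 0.792 of the whole range of the CD mice. That flag rests on 5 read pairs in CD mouse 3. Ugt1a1 in CD mouse 3 stood at 257 CPM and the next highest CD mouse at 220.0 CPM, a gap of 0.726 of the range. Without that library Ugt1a1 was still not called.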

How the results depend on the processing

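The number of members called higher and lower on LD was 15 and 6, and 8 and 3 when edgeR tested against a fold change of 1.2, which lost Gstm1, Gstm2, Gstm5, Gstm7, Gstp2, Sult1a1, Sult2a7, Ugt1a6b, Ugt3a1 and Ugt3a2. Gstm7 was also lost with limma on log2(TPM + 1). Leaving out 1 mouse gave 14 to 16 higher and 4 to 8 lower. A block for the replicate number gave 15 higher and 5 lower, losing Gstp2, Sult1a1 and Sult2a7 and gaining Gstm4 and Sult1d1. Same-numbered mice of the diets did not deviate together (correlations from -0.08 to 0.19), so the numbers give no pairing. Of 577 refits of the 29 named members, 536 stayed on the same side of the threshold, 26 lost a call, 15 gained one and none reversed. These include 19 refits each of Gm3776 and Nat8f7, chosen for their difference, of which none changed. Many of the other members were named because they were called with separated diets. The share that stayed is therefore no measure of stability for members at large. Sult1a1 lost its call in 13 of its refits and Gstp2 in 7. Sult2a8 gained it in 4 (adjusted p 0.014 to 0.173 over all its refits). With limma on log2(TPM + 1) the median of all genes moved to 0.06, and 2227 genes were higher and 740 lower, in place of 1859 and 1498. With 0.1 added the median was 0.07 and the split 2330 and 778.

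For H3K27ac, counting peaks in place of covered length gave 2 members with LD above and 4 with LD below, in place of 7 and 7 (7.63% and 1.76% of all genes, in place of 20.9% and 5.30%). Leaving out 1 sample gave 8 to 11 above (most without LD sample 3) and 7 to 17 below (most without LD sample 1), while the shares over all genes were 25.3% to 29.2% above and 6.32% to 9.92% below. Within 5 kb of members lay 124 Hnf4α loci (6 LD-only, 4 CD-only) and 2 CD-only C/EBPα loci, and within 50 kb 14 CD-only Hnf4α loci. Keeping only the higher peaks of each list (those at or above its median height) left 110 Hnf4α loci (6 LD-only, 4 CD-only) and 10 LD-only C/EBPα loci. Leaving out 1 sample, which lets a locus rest on 1 sample and so raises counts by construction, gave 239 to 262 Hnf4α loci (14 to 34 LD-only, 13 to 36 CD-only) and 200 to 216 C/EBPα loci (26 to 62 LD-only, 7 to 38 CD-only). At a CHiCAGO score of at least 10, members had 45 contacts on LD, 60 on CD and 37 in both, beside 29092, 30960 and 21770 over all promoters. The causes of these shifts, other than fewer samples, peaks or contacts, were not tested. Differences at single Hnf4α or C/EBPα loci were not tested.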
